A study of Mus musculus with 2 samples.

Results

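The bone morphogenetic protein (BMP) and transforming growth factor beta (TGF-beta) pathways were examined in mouse hair follicles through 31 genes. These genes were chosen by name for their known place in these pathways and not by a rule on their values. Earlier results of these data were known when they were chosen. They were taken from the 18193 genes that had at least 1 probe set annotated to that gene alone, and 22 belong to the BMP arm and 9 to the TGF-beta arm. Follicles were collected at postnatal day 10 from wild-type mice and from mice transgenic for dnFGFR2-IIIb, which derives from the IIIb isoform of the receptor Fgfr2 for fibroblast growth factors. Each genotype was measured on 1 Affymetrix mouse array, with RNA pooled from 3 mice of separate litters that gave about 100 follicles each. The sources used here do not give the strain, the sex of the mice or the promoter of the transgene. With 1 array per genotype there was no replicate spread and no test, and all differences describe these 2 pools. Whole follicles were used, so that fewer cells of a type and less RNA per cell cannot be told apart.

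Ligands of the BMP and TGF-beta family bind pairs of receptor kinases on the cell surface, which phosphorylate Smad proteins that enter the nucleus and change transcription. BMP ligands act mainly through Smad1 and Smad5 and induce the Id genes, while TGF-beta and activins act mainly through Smad2 and Smad3. Secreted antagonists such as noggin trap BMP ligands outside the cell, and the inhibitory Smads dampen the response inside it. In the growing hair follicle, BMP signalling through the receptor Bmpr1a is required for matrix cells to differentiate into hair shaft and inner root sheath.

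At the probe set that represents each gene, no member of either pathway differed 2-fold with both signals above the floor. Of the 31 genes, 25 gave a signal above the floor of 10.5 arbitrary units on both arrays and 6 were below it on both. The floor is the 40th percentile of all signals and lies near background. Of the 25, 0 passed 2-fold in either direction. Among the 11566 genes above the floor in both pools, 3.18% did so, 185 of them (1.6%) higher and 183 (1.58%) lower in the transgenic pool. At that share fewer than 1 of 25 genes would pass, so that the count of 0 says little about the members. At a threshold of 1.5-fold, 3 members were higher and 4 lower, together 7 of 25, beside 6.36% higher, 6.78% lower and 13.1% in either direction over all genes. That count depended on the processing. It was 2 of 25 when probe sets were averaged (11.8% of all genes) and 4 of 25 with the floor as a pseudocount (7.70%). It was 3 of 20 with the floor at the 60th percentile (7.67%) and 1 of 18 with a floor of 50 (5.33%). With the floor at the 20th percentile it was 9 of 27 (23.1%), and with equal spiked controls 5 of 25 (16.6%). Under the other alternatives at this threshold it was 6 or 7, beside 13.0% to 14.9% of all genes. As reported, the 7 were Fst, Tgfb2, Gdf10, Bmp1, Bmpr1b, Tgfb1 and Tgfbi, and all but Bmp1 had signals under 100. The median log2 ratio of transgenic over wild type was -0.07 in the BMP arm and -0.11 in the TGF-beta arm, beside 0.01 over all genes above the floor on at least 1 array. The log2 ratio was above 0 in 11 members and below 0 in 14. It reached from -0.99 for Tgfbi to 0.94 for Gdf10.

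**Figure D1:**
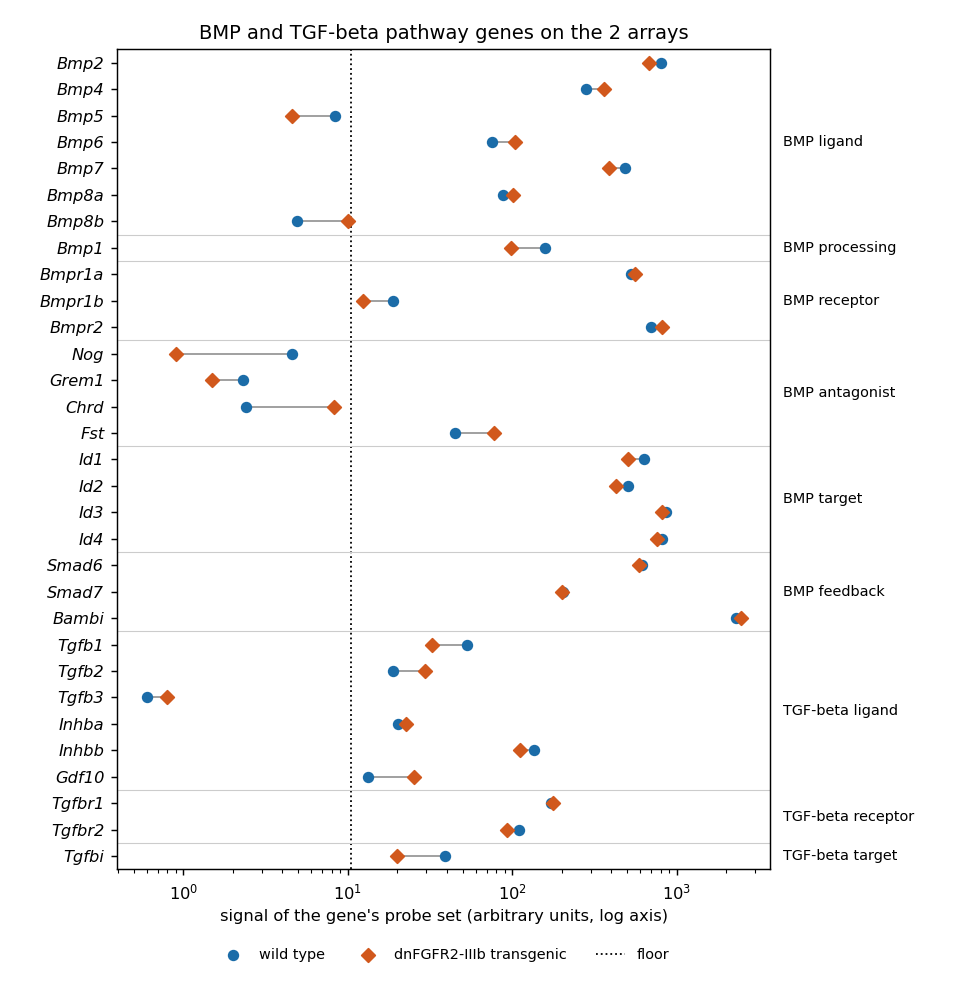
Signal of each of the 31 genes on the wild-type array (circles) and the transgenic array (diamonds), on a log axis in arbitrary units, grouped by role, with the floor of 10.5 as a dotted line and 1 array per genotype. Both symbols lie close together for the receptors, Id genes and feedback inhibitors with signals over 100, and the 6 genes left of the line lie below the floor on both arrays.

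The material read as hair follicle on both arrays, and the pools differed in some of their other markers. The 27 control probe sets without a mouse target read at most 8.50 in the wild-type pool and 15.8 in the transgenic pool. Signals below the level of their own array are called near background here. The probe sets of Fgfr2 above the floor read 197 and 147 on the wild-type array and 368 and 206 on the transgenic array, and whether they lie within the transgene is not known here. Summed signals were close for markers of the inner root sheath (1.01-fold transgenic over wild type), the hair shaft (1.04-fold) and the matrix (1.05-fold), all of whose measured markers were above the floor. The sum was 1.62-fold for interfollicular epidermis and 1.31-fold for dermal fibroblasts and sheath. It was 1.45-fold for immune cells, 1.35-fold for endothelium, 1.12-fold for the dermal papilla, 0.92-fold for melanocytes, 0.84-fold for the outer root sheath and basal layer, and 0.57-fold for Schwann cells. It was 0.70-fold for adipocytes, where Fabp4 read 7210 and 5108 and Adipoq 139 and 65.3, 2.13-fold lower, and 1.32-fold for skeletal muscle, where 4 of 5 markers were below the floor in the wild-type pool. Krt1 of the epidermal list, Ptprc of the immune list and Pecam1 of the endothelial list were below the floor on both arrays. Each of them is a defining marker. The 5 other epidermal markers measured were all higher in the transgenic pool. Krt10 read 150 and 225, Krtdap 182 and 258, and Lor 78.6 and 130. Krt77 read 16.6 and 63.8, and Krt78 read 10.1, below the floor, and 32.3. Only 3 of 7 immune markers and 2 of 5 endothelial ones were above the floor in both pools. The immune ones were Csf1r (73.3 and 74.8), Cd68 (51.7 and 45.3) and Cd74 (11.2 and 22.9). The endothelial ones were Tek (35.4 and 31.5) and Cdh5 (13.7 and 42.3). Among sex-linked genes, Eif2s3y, Kdm5d and Uty of the Y chromosome read 191, 55.3 and 31.3 in the wild-type pool. All of these were under the floor in the transgenic pool, and Xist read 352 and 1146. The pools thus differed in sex-linked signal, and with 1 pool per genotype, differences by sex and by genotype cannot be told apart. The part of the marker differences in the values below was not tested.

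Of 7 BMP ligands, 5 were above the floor, and 0 of these reached 1.5-fold, beside 13.1% of all genes, a share at which fewer than 1 of 5 would. Bmp2, a ligand of the follicle epithelium, read 798 in the wild-type pool and 674 in the transgenic pool, a log2 ratio of -0.24. Bmp4, which is made in the dermal papilla and in the differentiating hair shaft, read 281 and 362, a log2 ratio of 0.37. The transgenic pool was thus lower for the former and higher for the latter, each at a single probe set. Beside an SD of 0.36 between probe sets of 1 gene at this brightness, Bmp2 lay within it and Bmp4 just outside. Bmp7, which pairs with other BMPs, read 482 and 389 at the probe set that represents it, and its other probe sets gave log2 ratios of -0.41 and 0.22, so that its direction was not settled between probes. Bmp6 read 75.0 and 103, a log2 ratio of 0.46, and Bmp8a read 87.5 and 100, a log2 ratio of 0.20. Bmp5 and Bmp8b were below the floor at every probe set. Bmp1, which despite its name is a metalloprotease that cleaves procollagens and the BMP antagonist chordin, read 157 and 98.3. This was 1.60-fold lower in the transgenic pool and was the largest difference in the BMP arm among genes with a signal over 100. A second Bmp1 probe set read 87.0 and 71.4, and the third read 17.0 in the wild-type pool and lay under the floor in the transgenic pool. All 3 Bmp1 probe sets were therefore lower in the transgenic pool, with log2 ratios of -0.67, -0.29 and at most -0.70, the last of these from a dim signal.

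The BMP receptors with clear signal read alike in both pools. Bmpr1a, the type I receptor needed for hair differentiation, read 523 and 558. Of its 5 probe sets above the floor in both pools, 4 had log2 ratios between 0.01 and 0.25, and the other, dim one, at 25.9 and 17.0, gave -0.61. Bmpr2, the type II receptor, read 694 and 813, a log2 ratio of 0.23, with 0.51 at a second probe set that read 68.4 and 97.7. Both probe sets of Bmpr2 were higher in the transgenic pool, by less than 1.5-fold. Bmpr1b, an alternative type I receptor, read 18.8 and 12.3, 1.53-fold lower, with the transgenic signal near background. A second Bmpr1b probe set read 9.50, below the floor, and 12.1, so that the direction for Bmpr1b was not settled. The sign for Bmpr1a reversed under scaling to equal medians, where its log2 ratio was -0.05.

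Of the 4 secreted antagonists among the 31 genes, follistatin alone gave a signal above the floor. Noggin (Nog) read 4.60 and 0.90, gremlin (Grem1) 2.30 and 1.5, and chordin (Chrd) 2.40 and 8.20, all of them below the floor, so that no ratio is given. Each of these 3 genes was represented by a single probe set, and a low signal does not show that the RNA was absent. Fst encodes follistatin, which neutralises activins and also binds some BMPs. Its 2 probe sets had the same mean over both arrays, 1 reading 44.6 and 76.9 and the other 55.5 and 66.0. They gave log2 ratios of 0.79 and 0.25, so that both were higher in the transgenic pool but only the former passed 1.5-fold. The dermal papilla is a known source of BMP antagonists. Of its 8 markers, 7 were above the floor in both pools, and 5 of these had a log2 ratio above 0. Rspo3 passed 2-fold, at dim signals of 14.7 and 34.9, and Alpl went the other way, at 45.5 and 26.9, 1.69-fold lower. The log2 ratios of Vcan, Corin, Crabp1, Prom1 and Lef1 lay between -0.04 and 0.23. The summed signal of the 8 markers was 631 and 708, with Sox2 below the floor on both arrays. Their part in the Fst difference was not tested.

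The Id genes, the best known direct targets of BMP signalling, encode helix-loop-helix proteins that lack a DNA-binding region and block the factors they pair with. All 4 were measured with signals over 100 and differed by less than 1.3-fold at the probe sets that represent them. Id1 read 634 in the wild-type pool and 508 in the transgenic pool, and Id2 read 501 and 426. Id3 read 859 and 813, and Id4 read 814 and 761. The transgenic pool was the lower one for each of them, with log2 ratios of -0.32 for Id1, -0.23 for Id2, -0.08 for Id3 and -0.10 for Id4. All of these lay within 0.36, the SD seen between probe sets of 1 gene at this brightness, and Id3 and Id4 turned above 0, to 0.11 and 0.10, when the arrays were scaled to equal spiked controls. Further probe sets of Id2 gave 0.09 and, at dim signals of 16.5 and 11.1, -0.57. Those of Id4 gave 0.04 and, at bright signals of 672 and 502, -0.42. The latter was 1.34-fold lower in the transgenic pool and lay outside the SD of 0.36.

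The promoters of Id2, Id3 and Id4 are shown because these genes are read-outs of BMP Smads, and that of Tgfbi because it had the largest difference among the lower members. Each is the 250 bases before the annotated start in RefSeq, build GRCm38.p6, 5′ to 3′, in lower case with exact matches to GGCGCC, a GC-rich element bound by BMP Smads, and to CAGAC or its reverse complement GTCTG, a Smad element, in capitals. The promoter table held 22 of the 31 genes, and Id1 was not among them.
Id2, chr12:25096093-25096342 (minus strand): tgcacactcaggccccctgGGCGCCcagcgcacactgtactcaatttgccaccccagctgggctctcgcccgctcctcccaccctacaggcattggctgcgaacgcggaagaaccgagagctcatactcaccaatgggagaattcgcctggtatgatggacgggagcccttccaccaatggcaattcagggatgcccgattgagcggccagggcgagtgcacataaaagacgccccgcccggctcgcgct
Id3, chr4:136143572-136143821 (plus strand): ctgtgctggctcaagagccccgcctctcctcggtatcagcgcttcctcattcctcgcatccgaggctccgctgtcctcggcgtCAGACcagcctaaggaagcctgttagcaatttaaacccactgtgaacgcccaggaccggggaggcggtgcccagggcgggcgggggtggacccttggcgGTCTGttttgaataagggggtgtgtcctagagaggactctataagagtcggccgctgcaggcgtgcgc
Id4, chr13:48260866-48261115 (plus strand): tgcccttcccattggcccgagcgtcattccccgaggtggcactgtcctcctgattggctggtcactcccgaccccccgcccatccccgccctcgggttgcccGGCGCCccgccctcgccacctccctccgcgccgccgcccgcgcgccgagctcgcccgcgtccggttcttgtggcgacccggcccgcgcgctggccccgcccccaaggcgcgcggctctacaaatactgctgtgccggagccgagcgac
Tgfbi, chr13:56609336-56609585 (plus strand): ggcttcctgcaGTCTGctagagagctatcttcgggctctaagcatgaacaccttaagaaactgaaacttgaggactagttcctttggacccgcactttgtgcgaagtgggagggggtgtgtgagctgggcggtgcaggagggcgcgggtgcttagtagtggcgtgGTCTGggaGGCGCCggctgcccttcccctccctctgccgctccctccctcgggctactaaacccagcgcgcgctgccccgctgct
Id2 and Id4 each held 1 GGCGCC and no CAGAC, Id3 held no GGCGCC and 2 CAGAC, and Tgfbi held 1 and 2. Over the 25 windows of the 22 genes, some of which have several annotated starts, 8 held GGCGCC and 13 held CAGAC. Among all 32851 promoter windows of the same length the shares were 9.59% and 42.2%. GGCGCC reads the same on both strands, and the motifs do not overlap each other. A match describes the sequence only.

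The inhibitors that BMP signalling switches on to limit itself kept within 0.10 of 0 on the log2 scale. Smad6, an inhibitory Smad that acts mainly on the BMP branch, read 617 and 586, a log2 ratio of -0.07. Smad7, an inhibitory Smad of both branches, read 204 and 200 at one probe set and 53.5 and 54.1 at the other, log2 ratios of -0.03 and 0.02. Bambi, a receptor-like protein without a kinase that blocks signalling at the membrane, read 2278 and 2437, a log2 ratio of 0.10. The signs of these ratios have no weight, since those of Smad6 and Smad7 turned with equal spiked controls and that of Bambi with equal medians.

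**Figure D2:**
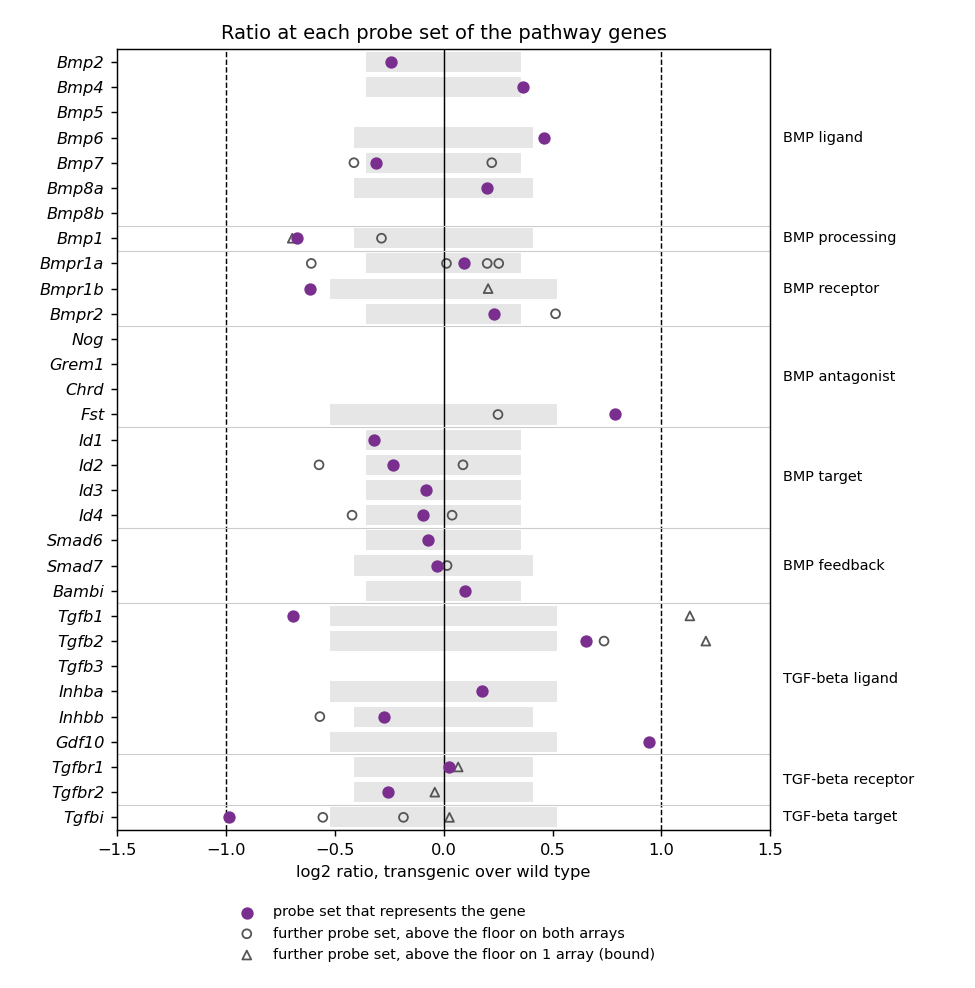
Log2 ratio of transgenic over wild type at each probe set of the 31 genes, with filled points for the probe set that represents the gene, open circles for further probe sets above the floor in both pools and triangles for bounds, where 1 signal was below the floor. Grey bands mark 1 SD of the ratios between a gene's probe sets at that brightness (0.36, 0.41 or 0.52), dashed lines mark 2-fold, and genes below the floor have no point. Of the 43 probe sets above the floor in both pools, 0 lie outside the dashed lines.

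In the TGF-beta arm most ligands were dim, and the probe sets of Tgfb1 went in opposite directions. Tgfb1, the ligand known for restraining epithelial growth, read 52.7 and 32.6, 1.62-fold lower in the transgenic pool. Its other probe set went the opposite way, with 9.70, below the floor, and 23.0, at least 2.19-fold higher, so that the direction for Tgfb1 was not settled. Tgfb2, a ligand of follicle formation and regression, read 18.8 and 29.6, with 17.7 and 29.5 at a second probe set. The third read 7.80, below the floor, and 24.2, at least 2.30-fold higher. These 3 Tgfb2 probe sets were all higher in the transgenic pool, with log2 ratios of 0.65, 0.74 and at least 1.20, and the fourth was below the floor on both arrays. Tgfb3 was below the floor, at 0.60 and 0.80. Gdf10, a divergent family member also known as BMP3B, read 13.2 and 25.4 at its single probe set. Its 1.92-fold difference was the largest upward one among the probe sets that represent members. This was below the bounds for the further probe sets of Tgfb1 and Tgfb2. It rests on a wild-type signal just above the floor of 10.5.

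The activin subunit genes differed by less than 1.5-fold at every probe set above the floor. Inhbb, which encodes the subunit of activin B, read 136 and 112, a log2 ratio of -0.27, and its dimmer probe set read 29.8 and 20.1, a log2 ratio of -0.57. Both Inhbb probe sets were lower in the transgenic pool. Inhba, the subunit of activin A, read 20.1 and 22.7, a log2 ratio of 0.18. The receptors Tgfbr1 and Tgfbr2, which pair to bind TGF-beta, read 173 and 176, and 110 and 92.3. Their log2 ratios of 0.02 and -0.25 lay within the SD of 0.41 between probe sets, and that of Tgfbr1 became -0.12 with equal medians.

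Tgfbi, a secreted matrix protein named for its induction by TGF-beta, was the member closest to the threshold. It read 39.2 in the wild-type pool and 19.8 in the transgenic pool, 1.98-fold lower, a log2 ratio of -0.99. Further probe sets read 25.7 and 17.5, and 26.7 and 23.5, log2 ratios of -0.55 and -0.18. All 3 were lower in the transgenic pool, but their sizes differed, and all carry the suffix of designs open to more than 1 transcript. The fourth, of the plain design, was near the floor at 9.20 and 10.7 and gave 0.03. Tgfbi passed 2-fold under scaling to equal medians, quantile normalization and loess, at 2.19-fold, 2.12-fold and 2.15-fold lower. Markers of dermal fibroblasts and sheath, cells that make such matrix proteins, were in sum higher in the transgenic pool, at 2576 and 3371 over 8 genes with all of them above the floor, and 5 of the 8 had a log2 ratio above 0. Dcn, at 985 and 1590, made up most of this rise, and without it the sum was 1591 and 1781, 1.12-fold (a choice made after seeing the data). Their part in the Tgfbi difference was not tested.

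The size of the differences followed brightness. The 11 members in the brightest tertile of genes had a median absolute log2 ratio of 0.23 and a maximum of 0.37, and the 7 in the middle tertile had 0.25 and 0.67. The 7 in the dim tertile had 0.69 and 0.99. Over all genes the medians were 0.14, 0.21 and 0.36 in the order bright, middle and dim. Among the 7 dim members, at the probe sets that represent them, Tgfb2, Gdf10, Fst and Inhba were higher in the transgenic pool and Tgfb1, Tgfbi and Bmpr1b lower. From dim to bright, the ratios of a gene's own probe sets varied with an SD of 0.52, 0.41 and 0.36. Of the 25 members, 16 (64.0%) lay within this SD of 0, beside 77.7% of all genes. This spread is technical and leaves out the differences between mice. Of the 18 members with a signal over 100 on at least 1 array, 0 passed 2-fold, against 1.08% of 6757 genes of that brightness.

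**Figure D3:**
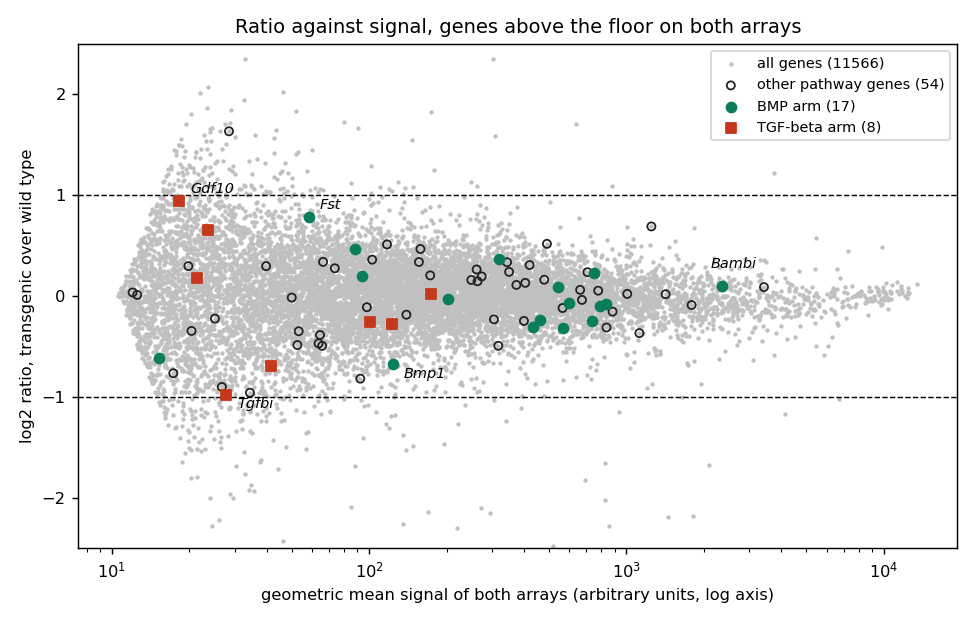
Log2 ratio of transgenic over wild type against the geometric mean signal of both arrays (log axis, arbitrary units) for the 11566 genes above the floor in both pools, with the 17 BMP genes as circles, the 8 TGF-beta genes as squares and 54 other pathway genes as open circles. Dashed lines mark 2-fold, 9 genes lie outside the plotted range, and the scatter narrows from left to right for the pathway genes as for all genes.

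Of 78 other genes of these pathways, listed by role, 71 had a probe set annotated to them alone, and 54 of these were above the floor in both pools. Of the 54, 1 was at least 2-fold higher and 0 were lower, beside 1.6% and 1.58% of all genes. At 1.5-fold, 2 were higher and 4 lower, beside 6.36% and 6.78%. The median log2 ratio over the 63 above the floor on at least 1 array was 0.01. The gene past 2-fold was Acvr2b, a type II receptor of activins, which read 16.2 and 50.3, 3.10-fold higher, while its other probe set above the floor read 19.3 and 22.0, a log2 ratio of 0.19. A further 3 genes had a transgenic signal below the floor and a wild-type signal over 2 times the floor but under 30. Of these, Cer1, a secreted antagonist, read 27.4 and 3.90, at least 2.61-fold lower. Gdf2, which encodes BMP9, read 21.5 and 2.10, at least 2.05-fold lower. Amhr2, the receptor of anti-Müllerian hormone, read 21.1 and 3.70, at least 2.01-fold lower. The further probe sets of Cer1 and Amhr2 were below the floor on both arrays. Of the 71 genes, 9 were above the floor on 1 array only, beside 2479 of all 18193 genes. The share of all genes past 2-fold against the floor was not counted.

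The Smads that carry the signal read close on both arrays. Smad1 read 1001 and 1016 and Smad4, the Smad shared by both branches, read 933 and 838. The log2 ratios of the 5 Smads above the floor lay between -0.15 and 0.24, and Smad9 was below the floor. Of 6 further genes known to respond to BMP, 0 passed 1.5-fold, where 13.1% of all genes did, and 4 had a log2 ratio below 0. They include Msx2, a homeobox gene of the hair matrix (1412 and 1430), Dlx3, a homeobox gene of hair differentiation (763 and 792), and Gata3, a regulator of the inner root sheath (589 and 542). The lowest of the 6 ratios were those of the dim genes Atoh8 and Hey1, at -0.35 and -0.22. Of 12 measured genes known to respond to TGF-beta, 0 passed 1.5-fold, again beside 13.1% of all genes, and 6 had a log2 ratio above 0. Signals over 100 were found for 11 of these 12 genes and for 4 of the 6 that respond to BMP. The share past 1.5-fold among all genes of that brightness was not counted. Ratios were smaller among bright genes, so that both counts of 0 say little. Col1a1, Col1a2 and Col3a1, collagens that are also fibroblast markers here, had log2 ratios of 0.36, 0.34 and 0.24. Acta2 and Tagln, genes of contractile cells, had -0.31 and -0.23, and Ccn2, a matricellular protein gene, had -0.25. The list held members on both sides of 0, with a median of 0.04.

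Among the modulators with a signal over 50 and a difference under 2-fold, Tgfbr3 differed most. Tgfbr3, the co-receptor betaglycan, read 123 and 69.6, 1.76-fold lower in the transgenic pool. Dcn, the matrix proteoglycan decorin that can bind TGF-beta and also serves as a fibroblast marker here, read 985 and 1590, 1.61-fold higher. Smurf2, a ubiquitin ligase that removes Smads and receptors, read 411 and 588, a log2 ratio of 0.52 that was 0.14 and 0.19 at its other probe sets. Tgif1, a Smad corepressor, read 98.3 and 140, a log2 ratio of 0.51. Pmepa1, a TGF-beta-induced inhibitor, had log2 ratios of -0.49, -0.49 and 0.04 at its 3 probe sets, and Fstl3, a follistatin relative, had -0.49.

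Both arms lay slightly below all genes under every scaling tried, while the sign of their medians changed. Equal trimmed means, equal medians, equal spiked controls and the deposited values differ only by a single factor on the transgenic array. The place of an arm relative to all genes could therefore hardly move between them, and their agreement is no separate support. Scaling to equal medians put the all-gene median of the log2 ratio at -0.13 and scaling to equal spiked controls put it at 0.19, and the split of all genes past 2-fold became 117 higher and 295 lower, or 313 and 104. The BMP median minus that of all genes was -0.09 as reported, -0.09 with equal medians, -0.08 with equal spiked controls, -0.03 with quantile normalization and -0.05 with loess. For the TGF-beta arm these differences were -0.13, -0.13, -0.11, -0.12 and -0.14. When the log2 ratios were averaged over a gene's probe sets, the TGF-beta median lay 0.08 above that of all genes, so that its place depended on the choice of probe set. Of the 25 members, 18 kept the sign of their log2 ratio under all 5 other scalings, and the 7 that did not were Bmpr1a, Id3, Id4, Smad6, Smad7, Bambi and Tgfbr1.

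**Figure D4:**
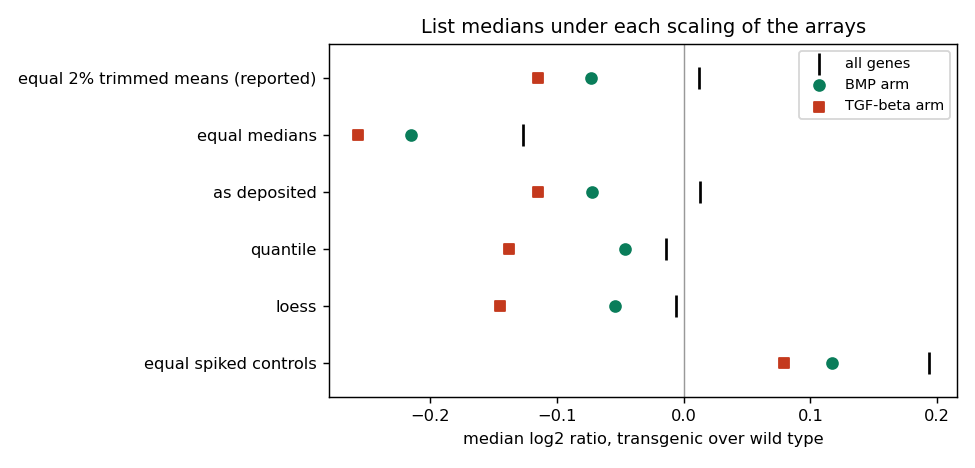
Median log2 ratio of transgenic over wild type for all genes (bars), the BMP arm (circles) and the TGF-beta arm (squares) under 6 scalings of the 2 arrays. Both arms lie to the left of all genes in each row, and their medians are below 0 in all rows but that of equal spiked controls, where they are 0.12 and 0.08.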

How the data were processed

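Per the labels, total RNA was isolated with Trizol and hybridised by the Affymetrix protocol. The authors deposited one linear intensity per probe set, scaled so that the 2% trimmed mean is 100 on each array, as the values show. The summary algorithm is not stated in the sources used here. The 64 control probe sets were left out. The transgenic array was then set to the 2% trimmed mean of the wild-type array over the remaining 45037. Global scaling hides a shift shared by all genes. Of the probe sets that the platform annotation gives 1 symbol, the brightest by the mean of both arrays stood for the gene. Signals below the 40th percentile were set to that floor, and a ratio against it is a bound. A gene was called when its signals were both over the floor and at least 2-fold apart. All 31 members matched a RefSeq gene table (GRCm38.p6) by identifier. Members, lists and alternatives were chosen with earlier results of these data known. All members are named. Of the other pathway genes, those past 2-fold are named, with the 6 next largest with a signal over 50. Genes outside this rule were named after their values were seen, such as the Smads and responding genes. Python 3.11.15, pandas 2.3.3, scipy 1.17.1 and statsmodels 0.14.6 were used. The number of arrays limits the precision.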

Additional observations from a re-analysis of the deposited data

How the results depend on the processing

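The count of members past 2-fold was 0 as reported. It was 1 with equal medians, quantile normalization or loess (Tgfbi), 1 with equal spiked controls (Gdf10, 2.20-fold higher), 1 with the floor at the 20th percentile (Bmp8b, 2.04-fold higher) and 7 at a threshold of 1.5-fold. It was 0 under the other alternatives, which were no rescaling, floors at the 60th percentile and at 50, a pseudocount, the mean over probe sets, omitting _s_at and _x_at probe sets, choosing the probe set by the wild-type array, the other Fst probe set (chosen after seeing the data) and a 3-fold threshold. The BMP median moved from -0.07 to -0.22 with equal medians and to 0.12 with equal spiked controls. The TGF-beta median moved from -0.11 to 0.079 with equal spiked controls, 0.11 with the mean over probe sets, 0.025 without _s_at and _x_at probe sets, -0.26 with equal medians and -0.26 with the floor at the 60th percentile. Other pathway genes past 2-fold numbered 1 as reported, 3 with equal medians, quantile normalization or loess and 7 with the floor at the 20th percentile. They numbered 6 at 1.5-fold, beside 13.1% of all genes. The count was 0 with the floor at the 60th percentile or at 50, the mean over probe sets or the choice by the wild-type array. Over all genes, those past 2-fold numbered 185 higher and 183 lower of 11566 as reported. With the floor at the 20th percentile they numbered 845 and 684 of 14231. With floors at the 60th percentile and at 50 they numbered 50 and 61 of 9376, and 22 and 37 of 8017. With equal medians they numbered 117 and 295 of 11553, and with equal spiked controls 313 and 104 of 11528. Of 317 recomputed values of single members, 310 moved by less than the SD between probe sets and 7 by more, in Fst, Tgfb1, Tgfb2 and Tgfbi. The cause of these 7 moves was not tested. Many of the 317 values could hardly move, so that the count of 310 is weak support. The reported scaling multiplied the transgenic array by 0.9998, and leaving it out changed little. Moving the floor left a ratio as it was while both signals stayed above it. No paired analysis was possible because each genotype has 1 array. Dim signals limit the TGF-beta arm most, with 5 of its 8 measured genes in the dim tertile.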
